A study of Homo sapiens with 6 samples.

Results

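Heat shock proteins and the co-chaperones of HSP90 were followed in the human line MDA-MB-231, which grew out from a breast cancer and has a mesenchymal-like form. The set held 44 genes, taken by symbol from the deposited table of 58051 genes, and each symbol matched 1 row. The study stained the cells with recombinant human FABP4, a fatty acid carrier, tagged with the green dye FITC, and sorted them by flow cytometry. The groups were FABP4 binding cells and FABP4 non-binding cells, with 3 libraries of each, all labelled WT and all sorted. Values were TPM, transcripts per 1000000, a length-corrected share of each library, made from total RNA with ribosomal RNA removed. Since no label ties replicates to a culture or a sort of their own, every p-value measures the spread of these 6 libraries alone, which may be technical. In sorted bulk RNA, fewer cells of a type and less RNA per cell cannot be told apart.

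Heat shock proteins are molecular chaperones, which hold, fold, refold or hand on other proteins. HSP70 works in cycles of ATP use that J-domain proteins start and nucleotide exchange factors end, and HSP90 takes over late-folding clients such as kinases and steroid receptors with the help of its own co-chaperones. The transcription factor HSF1 raises many of these genes when unfolded proteins accumulate, and tumour cells often rely on the system at rest.

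Every library summed to 1000000 TPM, which leaves the sequencing depth unknown. Per library, 15810 to 15945 genes in binding and 15300 to 15458 in non-binding libraries reached 1 TPM. Of 8 markers of the line, 4 were higher in the binding cells (AXL, CAV1, ANXA1 and CD44) and none lower, with a median log2 change of 0.69. Of all genes tested, 19.6% were higher and 7.12% lower, with a median of 0.36. The binding libraries lay wholly above for 7 of the 8 markers and wholly below for 1, MSN, which did not pass. MSN had 431, 569 and 572 TPM (binding) against 647, 621 and 704 TPM (non-binding). The mesenchymal filament gene VIM lay at 846, 965 and 981 TPM (binding) against 821, 835 and 835 TPM (non-binding). Of 6 genes known to be low in the line, the oestrogen receptor gene ESR1 was listed at 0 in all 6 libraries and PGR was under the filter. GATA3, ERBB2 and EPCAM were present, at means of 13.2, 12.2 and 7.79 TPM (binding) against 13.3, 10.03 and 5.42 TPM (non-binding). CDH1 (E-cadherin) was lower, at 2.89, 4.15 and 3.26 TPM (binding) against 6.21, 6.02 and 7.29 TPM (non-binding). The part of these marker differences in the chaperone results was not tested. Epidermal keratinocyte genes were present too. Their 12 markers summed to 1638 to 2917 TPM (binding) against 3733 to 5270.3 TPM (non-binding), none was at 0 in any library, and 9 of the 12 were lower in binding cells, with none higher. Of 5 adipocyte markers, LPL alone passed the filter, and it was not called. The 3 endothelial markers and 2 of the 6 leukocyte markers were under the filter and not tested, and none of the 4 leukocyte and 5 fibroblast markers tested was called. Binding replicate 1 stood apart from the other binding libraries, with 912 TPM of the immediate-early gene EGR1 against 81.6 and 96.8, and it held the highest of the 6 values for 19 of the 44 genes. Non-binding replicate 2 held the lowest for 18. Transcripts of the mitochondrial genome took 9.99% to 11.2% of TPM (binding) against 2.98% to 3.38% in non-binding libraries.

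All 44 genes passed the filter of at least 1 TPM in at least 3 libraries, and 9 were higher and 5 lower in the binding cells. The higher genes were HSPB11, SERPINH1, HSPA13, TRAP1, FKBP5, CDC37, BAG1, BAG5 and STUB1, and the lower genes were CRYAB, DNAJA2, AHSA1, CHORDC1 and HSPE1. The test was limma on log2(TPM + 1) over all 15574 genes past the filter, with a Benjamini-Hochberg adjusted p under 0.05. Of all genes tested, 19.6% were higher and 7.12% lower, where 20.5% and 11.4% of the chaperone genes were. In either direction, 14 of the 44 genes and 26.7% of all genes passed. The median log2 change was 0.11 for the 44 genes and 0.36 for all genes tested, so changes below are also given relative to 0.36. The binding libraries lay wholly above the non-binding libraries for 15 of the 44 and wholly below for 11, against 38.6% and 13.6% of all genes tested. Their summed TPM was 7376 to 7680.3 in binding and 7989.9 to 8605 in non-binding libraries, and these ranges did not overlap. Mitochondrial genome transcripts took 9.99% to 11.2% of TPM in binding and 2.98% to 3.38% in non-binding libraries, which leaves less for all other genes in binding libraries. The sums were not rescaled for this, and its part in them was not tested.

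These calls changed with the scaling and with single libraries. After a shift that gave all 6 libraries 1 common median, 2 genes were higher (HSPB11 and TRAP1) and 11 lower, where all genes gave 6.18% higher and 12.1% lower. The 11 lower genes were HSPA1L, HSPB1, CRYAB, HSP90AA1, HSP90AB1, HSPE1, DNAJA2, DNAJC7, AHSA1, PTGES3 and CHORDC1. With quantile normalization TRAP1, CDC37, STUB1 and SERPINH1 were higher and CRYAB, HSPE1, DNAJC7 and CHORDC1 lower, where all genes gave 7.69% higher and 8% lower. With TPM rescaled after removal of mitochondrial genome transcripts, 13 of the 44 were higher and 3 lower, beside 4477 and 813 of all genes. When non-binding replicate 3 was left out, none of the 44 passed by limma, where 0.372% of all genes were higher and 0.0385% lower. At an unadjusted p under 0.05, 12 of the 44 were then higher and 8 lower. By limma as reported, 6963 of all 15574 genes tested fell under this cutoff, beside 24 of the 44. All genes were not counted at this cutoff in the other fits, here and below. When non-binding replicate 2 was left out, none passed either, beside 280 and 80 of all genes higher and lower, with 9 higher and 8 lower by limma at an unadjusted p under 0.05. Without non-binding replicate 1, TRAP1 and HSPBP1 were higher and none was lower, beside 1427 and 511 of all genes, with 8 lower at an unadjusted p under 0.05. Without binding replicate 3, 6 were higher and none lower, beside 1555 and 638 of all genes, with 8 lower at an unadjusted p under 0.05. Without binding replicate 2, 6 were higher and DNAJA2 was lower, beside 1955 and 769 of all genes. Without binding replicate 1, 7 were higher and 8 lower, beside 1975 and 888 of all genes. HSPA8, HSP90AA1 and DNAJC7 had then joined the lower genes. The calls were not equally firm over the 16 settings, the reported one included. TRAP1 passed in 14, HSPB11 and SERPINH1 in 12, CDC37 in 11, and HSPE1 and STUB1 in 10. BAG1, FKBP5, CRYAB and DNAJA2 passed in 9, HSPA13, AHSA1 and CHORDC1 in 7, and BAG5 in 5.

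**Figure D1:**
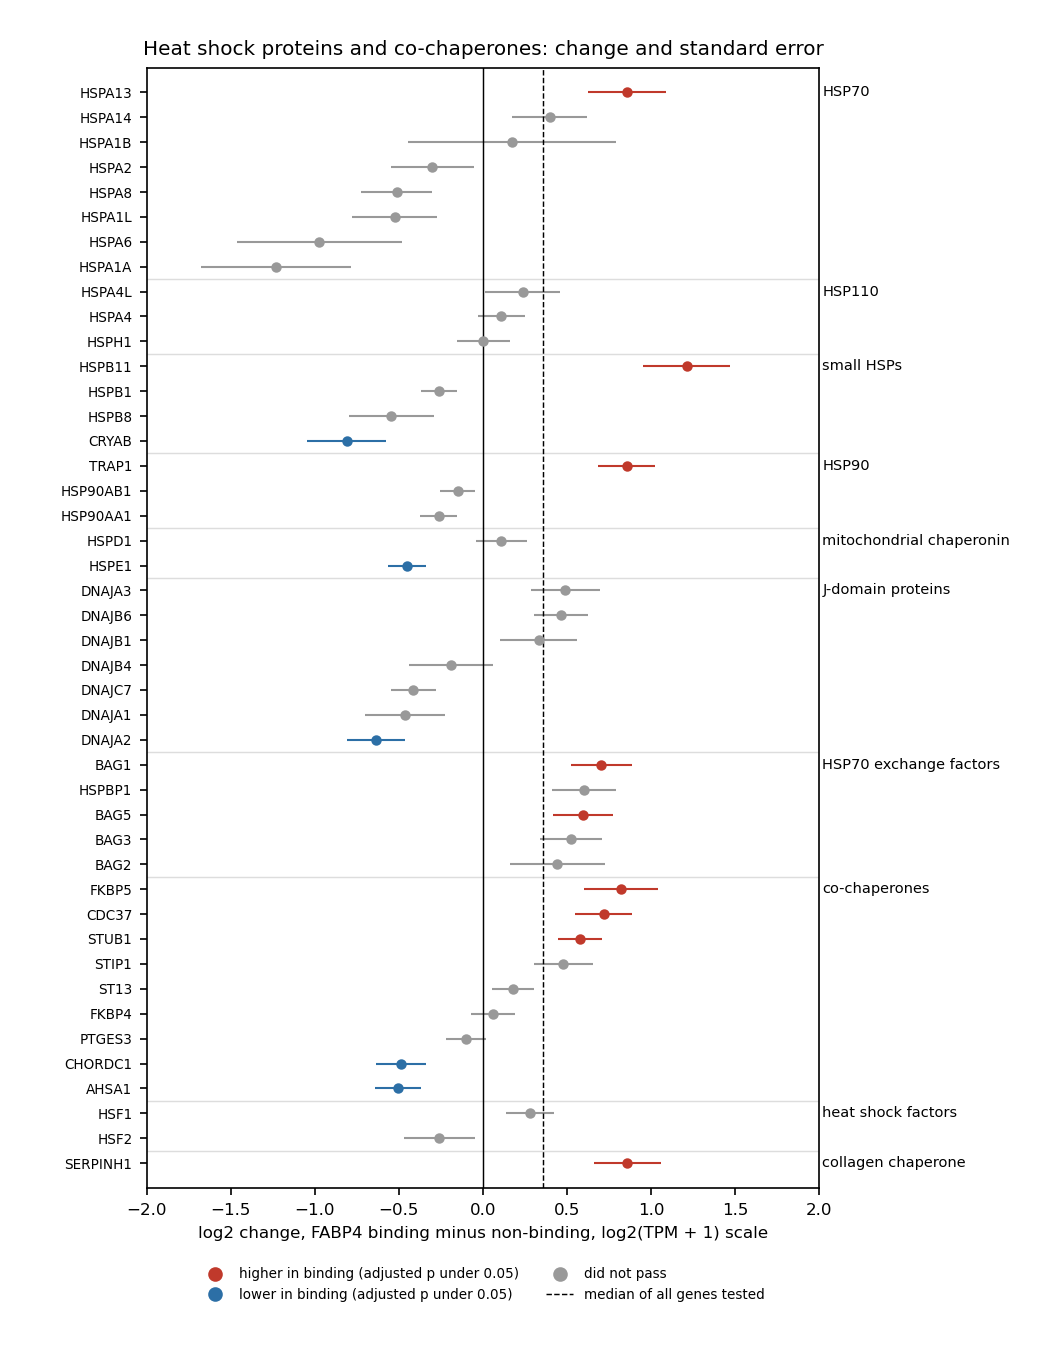
Log2 change of the 44 genes (x axis, binding minus non-binding on the log2(TPM + 1) scale; bars are standard errors from limma), grouped by role down the page. Red points passed as higher and blue points as lower. The dashed line is the median of all genes tested, 0.36. HSP90AA1, HSP90AB1 and the HSP70 genes other than HSPA13 and HSPA14 lie left of it.

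**Figure D2:**
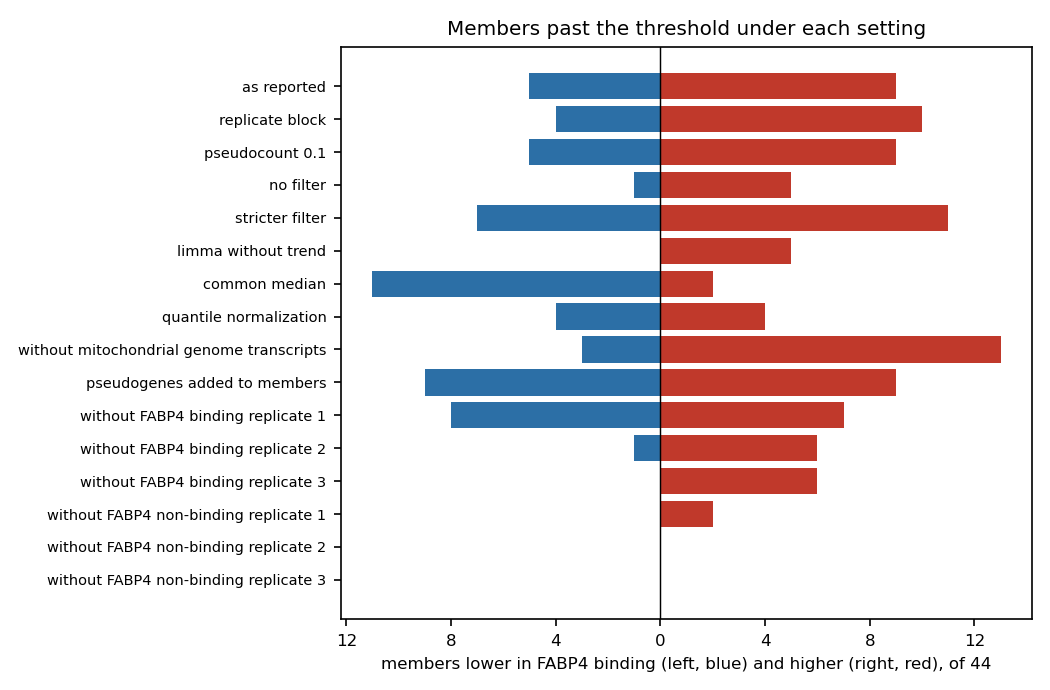
Number of the 44 genes past the threshold (x axis) under each setting (y axis), with lower genes to the left and higher genes to the right. The counts are 9 higher and 5 lower as reported and 0 without non-binding replicate 2 or 3.

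The heat shock factors did not pass. HSF1, the main activator of the response, had 87.2, 66.5 and 70.8 TPM in the binding libraries, against 59.8, 61.1 and 62.2 TPM in the non-binding libraries, in the order of replicates 1, 2 and 3 used throughout. The binding libraries were all above the non-binding ones, but the change was below the median of all genes (log2 change 0.28; limma with Benjamini-Hochberg, adjusted p = 0.165), and its sign turned to -0.038 with the common median. HSF2, a related factor active in development and in proteasome stress, had 16.7, 17.9 and 11.9 TPM in the binding libraries, against 18.9, 21.7 and 15.4 TPM in the non-binding libraries. These overlapped (log2 change -0.26; limma with Benjamini-Hochberg, adjusted p = 0.363).

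Heat shock factors bind repeats of GAA and its complement TTC. RefSeq promoters (GRCh38.p14, the bases from 250 before to 50 after a start) were on hand for 37 of the 44 genes, in 55 windows. An element of 3 units, GAA and TTC in turn with 2 bases of any kind between them in either order, stood in 9 windows (16.4%), against 172 of 35116 RefSeq windows (0.49%). Counted by gene, 9 of 37 chaperone genes (24.3%) and 166 of 27305 of all genes (0.608%) had it. Elements of 2 units (GAANNTTC or TTCNNGAA, each its own reverse complement and part of the longer one) stood in 36.4% of chaperone windows and 13.5% of all windows. The CCAAT box (CCAAT or ATTGG) stood in 29.1% and 34.6%. The 9 genes with the 3-unit element follow 5′ to 3′ on the gene's own strand, because they carry the letters that heat shock factors are known to bind. Capitals mark the first matching stretch.
CHORDC1, chr11:90223073-90223123, minus strand: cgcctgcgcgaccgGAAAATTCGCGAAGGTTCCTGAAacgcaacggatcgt
SERPINH1, chr11:75562163-75562203, plus strand: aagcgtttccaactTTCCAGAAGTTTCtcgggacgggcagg
HSPA6, chr1:161524452-161524492, plus strand: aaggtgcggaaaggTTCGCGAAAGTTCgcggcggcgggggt
HSPA8, chr11:123062340-123062380, minus strand: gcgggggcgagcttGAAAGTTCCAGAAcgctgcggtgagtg
HSP90AA1, chr14:102087106-102087146, minus strand: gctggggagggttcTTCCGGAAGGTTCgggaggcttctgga
HSP90AB1, chr6:44247764-44247804, plus strand: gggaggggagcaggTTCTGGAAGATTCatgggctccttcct
HSPD1, chr2:197500054-197500090, minus strand: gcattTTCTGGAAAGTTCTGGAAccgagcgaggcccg
DNAJA1, chr9:33025262-33025302, plus strand: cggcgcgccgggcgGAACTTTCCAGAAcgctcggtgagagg
DNAJB6, chr7:157336859-157336899, plus strand: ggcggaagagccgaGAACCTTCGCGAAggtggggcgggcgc

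Genes with the 3-unit element did not share a direction: 6 had a log2 change below 0 and 3 above, from -0.97 for HSPA6 to 0.86 for SERPINH1. Of those with a promoter on hand, the element stood in 1 of 7 higher genes (SERPINH1), 1 of 4 lower genes (CHORDC1) and 7 of 26 that did not pass. HSPE1, counted here as a lower gene without the element, starts at 197499994 on chromosome 2, on the strand opposite to HSPD1. The HSPD1 stretch printed above lies past that start, beyond the window searched for HSPE1. CHORDC1 carried the longest stretch, 23 bases that end 38 bases before the start. The whole windows of these 2 genes, which went opposite ways, follow with every 3-unit match in capitals. A match is a stretch of letters, not a shown binding site.
SERPINH1, chr11:75562003-75562302, plus strand: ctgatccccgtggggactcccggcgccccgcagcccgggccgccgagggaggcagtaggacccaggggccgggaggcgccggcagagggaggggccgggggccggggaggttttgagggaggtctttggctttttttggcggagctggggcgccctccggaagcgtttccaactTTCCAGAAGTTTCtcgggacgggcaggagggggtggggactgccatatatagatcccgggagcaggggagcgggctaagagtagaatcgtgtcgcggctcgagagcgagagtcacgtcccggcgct
CHORDC1, chr11:90223000-90223299, minus strand: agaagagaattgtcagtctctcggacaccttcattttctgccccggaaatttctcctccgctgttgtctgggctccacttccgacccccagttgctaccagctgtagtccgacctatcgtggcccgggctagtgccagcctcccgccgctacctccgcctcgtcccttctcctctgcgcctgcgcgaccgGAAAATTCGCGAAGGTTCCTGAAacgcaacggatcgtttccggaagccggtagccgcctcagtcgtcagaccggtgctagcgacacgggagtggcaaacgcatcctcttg

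Of the 8 HSP70 genes, 1 (HSPA13) was higher and none lower, where 19.6% of all genes were higher and 7.12% lower. HSPA1A, HSPA1L, HSPA2, HSPA6 and HSPA8 had log2 changes below 0, and HSPA1B, HSPA13 and HSPA14 above. HSPA8, the constitutive HSP70 that serves protein folding and clathrin uncoating, had 644, 1110.5 and 1119 TPM in the binding libraries, against 1287, 1319 and 1377 TPM in the non-binding libraries. All 3 binding libraries lay below, with binding replicate 1 far under the others (log2 change -0.51, SE 0.21; limma with Benjamini-Hochberg, adjusted p = 0.0992). Without that library the log2 change was -0.25 and passed (limma with Benjamini-Hochberg, adjusted p = 0.0453; 0.0453 to 0.302 over all alternatives).

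HSPA1A and HSPA1B encode the main heat-inducible HSP70 from neighbouring genes on chromosome 6. HSPA1A had 6.79, 11.8 and 11.6 TPM in the binding libraries, against 52.5, 14.3 and 18.8 TPM in the non-binding libraries. The groups did not overlap, but non-binding replicate 1 was far above the others (log2 change -1.23; limma with Benjamini-Hochberg, adjusted p = 0.07), and without it the log2 change was -0.69. It passed with a stricter filter of a mean of 5 TPM (limma with Benjamini-Hochberg, adjusted p = 0.0481; 0.0481 to 0.203 over all alternatives). HSPA1B had 38.6, 96.7 and 115 TPM in the binding libraries, against 142, 25.4 and 82.6 TPM in the non-binding libraries. Its groups overlapped fully (log2 change 0.17; limma with Benjamini-Hochberg, adjusted p = 0.843). In GENCODE release 29, 71.3% of the 50-base windows of HSPA1A coding transcripts also stand in HSPA1B, so the split of reads between the pair is uncertain.

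HSPA6, an HSP70 that is made almost only under stress, had 3.77, 8.54 and 6.79 TPM in the binding libraries, against 29.7, 9.84 and 7.07 TPM in the non-binding libraries. Non-binding replicate 1 was again the highest, and the groups overlapped (log2 change -0.97; limma with Benjamini-Hochberg, adjusted p = 0.157), and 45.5% of its windows are shared with HSPA7. HSPA1L and HSPA2 are best known from testis. HSPA1L averaged 3.19 ± 0.566 TPM (SD, n = 3) among binding libraries, against 5.09 ± 1.19 TPM (SD, n = 3) among non-binding libraries, and passed with the common median alone (log2 change -0.53; limma with Benjamini-Hochberg, adjusted p = 0.139). HSPA2 averaged 8.01 ± 1.38 TPM (SD, n = 3) among binding libraries, against 10.3 ± 3.20 TPM (SD, n = 3) among non-binding libraries and overlapped (log2 change -0.30; limma with Benjamini-Hochberg, adjusted p = 0.365).

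Immediate-early genes, which cell handling also induces, summed to 1977 to 3109 TPM (binding) against 1561 to 2027 TPM (non-binding), with 1 of 12 higher (IER3) and none lower. The binding library with the most EGR1 had the least HSPA8, DNAJA1, HSPA1A, HSPA1B, HSPA6 and DNAJB1 of the 3. It also had the most HSP90AA1 and HSPH1, at 701 and 43.1 TPM. Of the non-binding libraries, replicate 2 had the most EGR1, at 388 TPM against 121 and 104. It had the least HSPA1A, HSPA1B, DNAJA1, DNAJB1, HSP90AA1 and HSPH1, but not the least HSPA8 or HSPA6. The part of cell handling in these values was not tested.

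**Figure D3:**
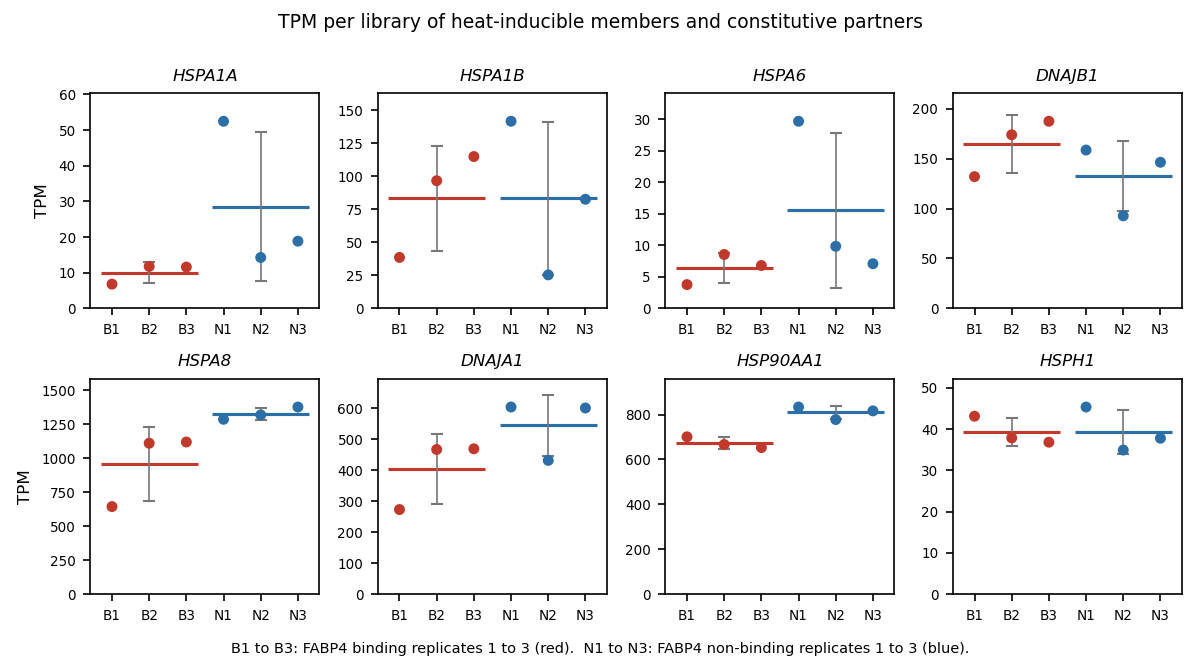
TPM (y axis, from 0) in each library (x axis) of heat-inducible chaperone genes and their constitutive partners; lines are group means and bars are SD (n = 3 each). HSPA1A and HSPA6 are highest in non-binding replicate 1, and HSPA8 and DNAJA1 are lowest in binding replicate 1.

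HSPA13, an HSP70-like protein of microsomes, was higher in the binding cells. It had 90.4, 59.9 and 57.3 TPM in the binding libraries, against 42.7, 42.2 and 27.99 TPM in the non-binding libraries, with no overlap (log2 change 0.86, SE 0.23; limma with Benjamini-Hochberg, adjusted p = 0.0344; 0.50 relative to all genes; chromosome 21, 14371115 to 14383484, hg38). HSPA14, an HSP70 bound to ribosomes, averaged 20.7 ± 4.87 TPM (SD, n = 3) among binding libraries, against 15.4 ± 3.06 TPM (SD, n = 3) among non-binding libraries and overlapped (log2 change 0.40; limma with Benjamini-Hochberg, adjusted p = 0.199). Summed, the 8 HSP70 genes held 819 to 1344 TPM (binding) against 1436 to 1587 TPM (non-binding), mostly from HSPA8.

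The HSP110 genes, which act as exchange factors for HSP70 and as holdases, showed no call. HSPA4 averaged 201 ± 31.7 TPM (SD, n = 3) among binding libraries, against 185 ± 5.40 TPM (SD, n = 3) among non-binding libraries. HSPH1, which heat induces, averaged 39.3 ± 3.38 TPM (SD, n = 3) among binding libraries, against 39.3 ± 5.39 TPM (SD, n = 3) among non-binding libraries. HSPA4L averaged 5.33 ± 0.482 TPM (SD, n = 3) among binding libraries, against 4.41 ± 0.954 TPM (SD, n = 3) among non-binding libraries. All 3 overlapped, with log2 changes of 0.11, 0.0021 and 0.24, which turned to -0.21, -0.32 and -0.082 with the common median. None had an unadjusted p under 0.05 by limma.

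Among the genes named as small heat shock proteins, CRYAB was lower and HSPB11 higher. CRYAB (alpha B crystallin), a holdase of lens and muscle that basal-like breast tumours also make, had 16.8, 11.8 and 8.72 TPM in the binding libraries, against 23.4, 20.8 and 21.5 TPM in the non-binding libraries. The groups did not overlap (log2 change -0.81, SE 0.23; limma with Benjamini-Hochberg, adjusted p = 0.0388; -1.17 relative to all genes; chromosome 11, 111908565 to 111923722). HSPB1 (HSP27), an actin-binding small chaperone that is also abundant in differentiating keratinocytes, had 602, 669 and 625 TPM in the binding libraries, against 738, 764 and 769 TPM in the non-binding libraries. It lay wholly below as well but did not pass (log2 change -0.26; limma with Benjamini-Hochberg, adjusted p = 0.101), except with the common median. The keratinocyte markers, of which 9 of 12 fell, summed to 1638 to 2917 TPM (binding) against 3733 to 5270.3 TPM (non-binding), and their part in CRYAB and HSPB1 was not tested. HSPB8, a partner of BAG3 in selective autophagy, averaged 8.85 ± 2.61 TPM (SD, n = 3) among binding libraries, against 13.2 ± 2.60 TPM (SD, n = 3) among non-binding libraries and overlapped (log2 change -0.55; limma with Benjamini-Hochberg, adjusted p = 0.13).

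HSPB11, also called IFT25, is a subunit of intraflagellar transport rather than a classic chaperone. It had 20.1, 21.5 and 14.04 TPM in the binding libraries, against 6.67, 5.61 and 10.4 TPM in the non-binding libraries, the largest rise of the 44 (log2 change 1.21, SE 0.26; limma with Benjamini-Hochberg, adjusted p = 0.0205; 0.85 relative to all genes; chromosome 1, 53916574 to 53945929).

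Of the HSP90 genes, only the mitochondrial one passed. TRAP1, the HSP90 of mitochondria, had 76.8, 55.3 and 53.6 TPM in the binding libraries, against 34.9, 32.2 and 32.9 TPM in the non-binding libraries. The groups were well apart (log2 change 0.85, SE 0.17; limma with Benjamini-Hochberg, adjusted p = 0.0179; 0.50 relative to all genes; chromosome 16, 3651639 to 3717597), and TRAP1 kept its call in each alternative run other than the fits without non-binding replicate 2 or 3. HSP90AB1, the constitutive cytosolic HSP90 and by mean TPM the most abundant of the 44 in either group, had 1236, 1182 and 1217 TPM in the binding libraries, against 1311, 1365 and 1361 TPM in the non-binding libraries. HSP90AA1, the inducible form, had 701, 667 and 653 TPM in the binding libraries, against 834, 778 and 816 TPM in the non-binding libraries. Both lay wholly below in binding cells by small steps, -0.15 and -0.26 on the log2 scale, and did not pass (limma with Benjamini-Hochberg, adjusted p = 0.29 and 0.0943), though both did with the common median.

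HSPD1 (HSP60) and HSPE1 (HSP10) form the chaperonin of the mitochondrial matrix and lie head to head on chromosome 2. HSPE1 had 248, 267 and 245 TPM in the binding libraries, against 362, 351 and 330.0 TPM in the non-binding libraries, with no overlap (log2 change -0.45, SE 0.11; limma with Benjamini-Hochberg, adjusted p = 0.0273; -0.81 relative to all genes; chromosome 2, 197499994 to 197503457). HSPD1 had 676, 484 and 492 TPM in the binding libraries, against 513, 488 and 512 TPM in the non-binding libraries. Only binding replicate 1 was high, and the groups overlapped (log2 change 0.11; limma with Benjamini-Hochberg, adjusted p = 0.592). Without that library the log2 change of HSPD1 was -0.047. The 2 partners thus differed in call, but the difference between them was not tested. Of the 50-base windows of HSPE1, 44.4% also stand in another gene, 21.6% in HSPD1 itself and 13.4% in HSPE1-MOB4.

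J-domain proteins bring clients to HSP70 and start its ATP use. DNAJA2, a cytosolic member, was lower, with 146, 219 and 211 TPM in the binding libraries, against 296, 279 and 307 TPM in the non-binding libraries. Binding replicate 1 was the lowest and the groups did not overlap (log2 change -0.64, SE 0.17; limma with Benjamini-Hochberg, adjusted p = 0.0329; -0.99 relative to all genes; chromosome 16, 46955362 to 46973788). DNAJA1, its close relative, had 273, 467 and 469 TPM in the binding libraries, against 604, 431 and 600.5 TPM in the non-binding libraries. These overlapped (log2 change -0.46; limma with Benjamini-Hochberg, adjusted p = 0.164). DNAJC7, which also binds HSP90, lay wholly below, with 45.5, 41.5 and 44.7 TPM in the binding libraries, against 59.8, 63.3 and 53.97 TPM in the non-binding libraries, and narrowly missed (log2 change -0.42; limma with Benjamini-Hochberg, adjusted p = 0.0516); it passed with the common median, quantile normalization, the stricter filter and without binding replicate 1.

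DNAJB1 (HSP40), the heat-inducible partner of HSPA1A, had 132, 174 and 187 TPM in the binding libraries, against 159, 92.7 and 146 TPM in the non-binding libraries. The groups overlapped (log2 change 0.33; limma with Benjamini-Hochberg, adjusted p = 0.285). DNAJB6, which holds back aggregation, had 75.8, 56.4 and 56.1 TPM in the binding libraries, against 43.9, 42.6 and 47.9 TPM in the non-binding libraries, with no overlap (log2 change 0.47; limma with Benjamini-Hochberg, adjusted p = 0.0622). DNAJA3 of mitochondria averaged 24.01 ± 6.26 TPM (SD, n = 3) among binding libraries, against 16.5 ± 1.42 TPM (SD, n = 3) among non-binding libraries, without overlap (log2 change 0.49; limma with Benjamini-Hochberg, adjusted p = 0.103). DNAJB4, a relative of DNAJB1, averaged 12.6 ± 0.378 TPM (SD, n = 3) among binding libraries, against 15.1 ± 5.13 TPM (SD, n = 3) among non-binding libraries and overlapped (log2 change -0.19; limma with Benjamini-Hochberg, adjusted p = 0.575). Of the 50-base windows of DNAJB6, 10.7% also stand in the processed pseudogene AP001000.1, whose level averaged 90.98 TPM (binding) against 187 TPM (non-binding).

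The 5 nucleotide exchange factors other than HSP110, which release ADP and client from HSP70, all had log2 changes above the all-gene median of 0.36. The 3 HSP110 genes, given above, lay below it, at 0.0021 to 0.24. Of the 5, 2 passed as higher and none as lower, where 19.6% of all genes were higher and 7.12% lower. BAG1, an anti-apoptotic BCL2 partner, had 25.3, 18.2 and 18.6 TPM in the binding libraries, against 11.5, 12.4 and 12.7 TPM in the non-binding libraries (log2 change 0.70, SE 0.18; limma with Benjamini-Hochberg, adjusted p = 0.0303; 0.35 relative to all genes; chromosome 9, 33247820 to 33264720). BAG5, built of several BAG domains, had 14.8, 16.1 and 14.6 TPM in the binding libraries, against 10.5, 8.20 and 10.6 TPM in the non-binding libraries (log2 change 0.60, SE 0.18; limma with Benjamini-Hochberg, adjusted p = 0.0416; 0.24 relative to all genes; chromosome 14, 103556544 to 103562831). Neither pair of groups overlapped. BAG5 passed in 5 of 16 settings and lost its call whichever library was left out. HSPBP1, an exchange factor without a BAG domain, had 137, 108 and 105 TPM in the binding libraries, against 96.6, 62.4 and 72.8 TPM in the non-binding libraries, with no overlap, and missed narrowly (log2 change 0.60; limma with Benjamini-Hochberg, adjusted p = 0.0502). BAG3, the stress-induced member that works with HSPB8, had 81.3, 103 and 106 TPM in the binding libraries, against 59.6, 58.2 and 84.5 TPM in the non-binding libraries. Non-binding replicate 3 alone reached above a binding library (log2 change 0.52; limma with Benjamini-Hochberg, adjusted p = 0.0674). BAG2, an inhibitor of STUB1, averaged 8.37 ± 1.56 TPM (SD, n = 3) among binding libraries, against 6.08 ± 2.15 TPM (SD, n = 3) among non-binding libraries and overlapped (log2 change 0.44; limma with Benjamini-Hochberg, adjusted p = 0.254); 42.3% of its windows are shared with RAB23. The 5 genes summed to 250.4 to 268 TPM (binding) against 145 to 187 TPM (non-binding).

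Co-chaperones of HSP90 and HSP70 moved in both directions, 3 of 9 higher and 2 lower, beside 19.6% and 7.12% of all genes. CDC37, which loads kinases onto HSP90, had 270.1, 198 and 201 TPM in the binding libraries, against 121, 128 and 155 TPM in the non-binding libraries. All binding libraries were higher (log2 change 0.72, SE 0.17; limma with Benjamini-Hochberg, adjusted p = 0.0242; 0.36 relative to all genes; chromosome 19, 10391134 to 10420121). FKBP5, an immunophilin of steroid receptors, had 17.8, 10.8 and 11.9 TPM in the binding libraries, against 6.99, 6.99 and 7.14 TPM in the non-binding libraries. The non-binding libraries were nearly equal and all lower (log2 change 0.82, SE 0.22; limma with Benjamini-Hochberg, adjusted p = 0.0328; 0.46 relative to all genes; chromosome 6, 35573585 to 35728583).

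STUB1 (CHIP), the ubiquitin ligase that marks chaperone clients for degradation, had 111, 96.98 and 90.1 TPM in the binding libraries, against 67.98, 66.8 and 63.3 TPM in the non-binding libraries. The groups were apart (log2 change 0.58, SE 0.13; limma with Benjamini-Hochberg, adjusted p = 0.0234; 0.22 relative to all genes; chromosome 16, 680224 to 682870). Of its 50-base windows, 34.4% are shared with the overlapping gene JMJD8, which was higher too at 32.1 TPM (binding) against 17.1 TPM (non-binding) on average (limma with Benjamini-Hochberg, adjusted p = 0.0221). The sources used here do not say whether strand was used in counting, so reads of the 2 cannot be told apart there.

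AHSA1 (AHA1), the activator of the HSP90 ATPase, was lower, with 312, 401 and 404 TPM in the binding libraries, against 515, 509 and 552 TPM in the non-binding libraries. Binding replicate 1 was the lowest and the groups did not overlap (log2 change -0.50, SE 0.14; limma with Benjamini-Hochberg, adjusted p = 0.034; -0.86 relative to all genes; chromosome 14, 77457870 to 77469474). CHORDC1 (morgana), an HSP90 partner whose promoter is printed above, was lower, with 15.5, 14.4 and 14.4 TPM in the binding libraries, against 20.9, 20.4 and 22.1 TPM in the non-binding libraries. Spread within each group was small (log2 change -0.49, SE 0.15; limma with Benjamini-Hochberg, adjusted p = 0.0456; -0.84 relative to all genes; chromosome 11, 90201160 to 90223364).

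The others did not pass. STIP1 (HOP), which joins HSP70 to HSP90, had 178, 116 and 130.3 TPM in the binding libraries, against 104, 91.5 and 104 TPM in the non-binding libraries, with no overlap (log2 change 0.48; limma with Benjamini-Hochberg, adjusted p = 0.0732). ST13 (HIP), which steadies HSP70 in its ADP form, averaged 130.2 ± 11.2 TPM (SD, n = 3) among binding libraries, against 115 ± 5.77 TPM (SD, n = 3) among non-binding libraries, without overlap. FKBP4, another immunophilin, averaged 90.8 ± 7.66 TPM (SD, n = 3) among binding libraries, against 87.04 ± 5.29 TPM (SD, n = 3) among non-binding libraries and overlapped. PTGES3 (p23), which holds HSP90 closed, averaged 298 ± 18.2 TPM (SD, n = 3) among binding libraries, against 319.6 ± 23.1 TPM (SD, n = 3) among non-binding libraries and overlapped. Their log2 changes were 0.18, 0.058 and -0.10 (limma with Benjamini-Hochberg, adjusted p = 0.287, 0.744 and 0.525), and those of ST13 and FKBP4 turned to -0.14 and -0.26 with the common median.

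SERPINH1 (HSP47), the collagen chaperone of the endoplasmic reticulum, had 136, 90.4 and 95.7 TPM in the binding libraries, against 61.1, 47.7 and 66.3 TPM in the non-binding libraries. All binding libraries were higher (log2 change 0.86, SE 0.20; limma with Benjamini-Hochberg, adjusted p = 0.0239; 0.50 relative to all genes; chromosome 11, 75562056 to 75572783).

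**Figure D4:**
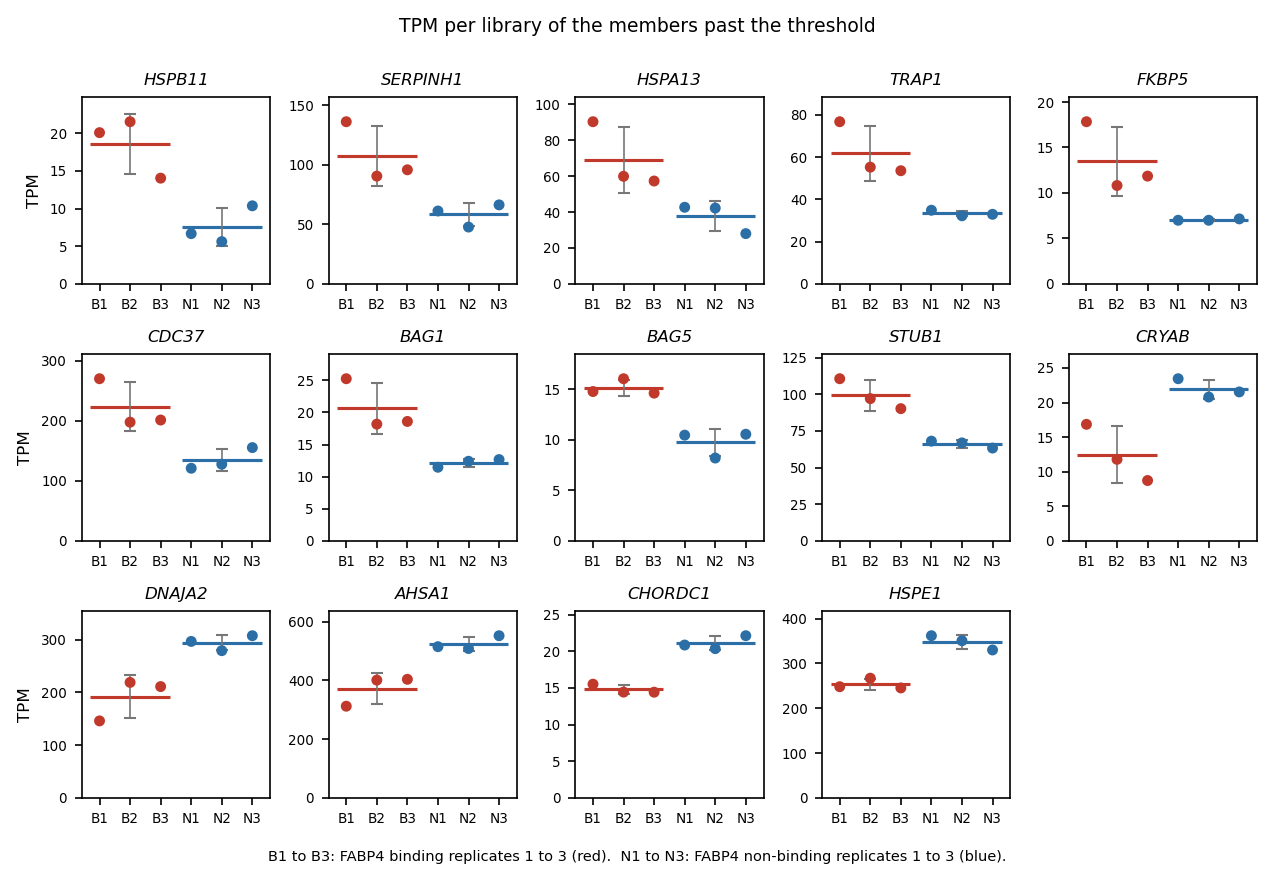
TPM (y axis, from 0) in each library (x axis) of the 14 genes past the threshold, 9 higher and then 5 lower; lines are group means and bars are SD (n = 3 each). In each panel the 3 binding and the 3 non-binding libraries do not overlap.

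Several chaperone genes have processed pseudogenes, copies of their mRNA scattered over the genome. The table held 108 pseudogenes of 14 of the 44 genes, found by symbol, and 40 passed the filter. Of these, 20 were lower in the binding cells and none was higher by limma, also at an unadjusted p under 0.05, where 24 were lower. Their median log2 change was -0.85. Of all 1954 processed pseudogenes tested, 535 (27.4%) were lower and 28 (1.43%) higher, with a median of -0.63. By limma, 826 of the 1954 had an unadjusted p under 0.05, in either direction. When non-binding replicate 3 was left out, none of the 40 passed, with 22 lower at an unadjusted p under 0.05, and without non-binding replicate 2 there was 1.

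Pseudogene TPM exceeded the parent gene's for PTGES3 in all 6 libraries and for HSPD1 in the 3 non-binding ones. For ST13 it did so in non-binding replicate 2 alone, at 134 TPM against 109 TPM. The 5 pseudogenes of PTGES3 summed to 346, 679.7 and 625 TPM in the binding libraries, against 1109, 1047 and 1161 TPM in the non-binding libraries. That was 52.3% to 70.8% of the sum in binding libraries and 76.5% to 78.2% in non-binding libraries, nearly all of it PTGES3P1. Those of HSP90AB1, mainly HSP90AB3P, summed to 430.2, 563 and 577 TPM in the binding libraries, against 774, 1215 and 877 TPM in the non-binding libraries, or 25.8% to 32.3% of the sum in binding libraries and 37.1% to 47.1% in non-binding libraries. For HSPD1, 17 pseudogenes summed to 289, 337 and 346 TPM in the binding libraries, against 566, 769 and 624 TPM in the non-binding libraries. They made up 29.9% to 41.3% of the sum in binding libraries and 52.5% to 61.2% in non-binding libraries. For HSPE1, 26 pseudogenes summed to 84.97, 119 and 113 TPM in the binding libraries, against 182, 277 and 253 TPM in the non-binding libraries. Every one of these 4 sums was lower in each binding library than in any non-binding library.

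Adding the pseudogenes to their parents before the fit, an alternative chosen after seeing the data, left 9 genes higher and raised the lower genes to 9, where all genes gave 19.6% higher and 7.04% lower. HSP90AA1, HSP90AB1, HSPD1 and PTGES3 joined the 5. PTGES3 with its pseudogenes had 662, 959 and 922 TPM in the binding libraries, against 1449, 1341 and 1484 TPM in the non-binding libraries (log2 change -0.77, SE 0.16; limma with Benjamini-Hochberg, adjusted p = 0.0197), where the gene alone had -0.10. HSPD1 with its pseudogenes had 965, 821 and 838 TPM in the binding libraries, against 1079, 1257 and 1136 TPM in the non-binding libraries (log2 change -0.40, SE 0.12; limma with Benjamini-Hochberg, adjusted p = 0.0458), the opposite sign to the gene alone. HSPE1 with its pseudogenes had 333, 386 and 359 TPM in the binding libraries, against 544, 627 and 583 TPM in the non-binding libraries (log2 change -0.70, SE 0.12; limma with Benjamini-Hochberg, adjusted p = 0.0138). With pseudogenes added the log2 changes were -0.40 for HSP90AB1, -0.36 for HSP90AA1 and, not past the threshold, for ST13 -0.21 (limma with Benjamini-Hochberg, adjusted p = 0.0466, 0.0402 and 0.186).

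Exact sequence shared with own pseudogenes covered 23.2% of the 50-base windows of ST13, 17.8% of HSPD1, 16.6% of HSP90AB1 and 14.9% of HSPE1. It covered 13.1% of those of HSP90AA1, 10.6% of PTGES3, 9.7% of HSPB1 and 8.67% of HSPA8. Whether the pseudogene TPM came from their own transcripts or from reads of the parent was not tested.

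**Figure D5:**
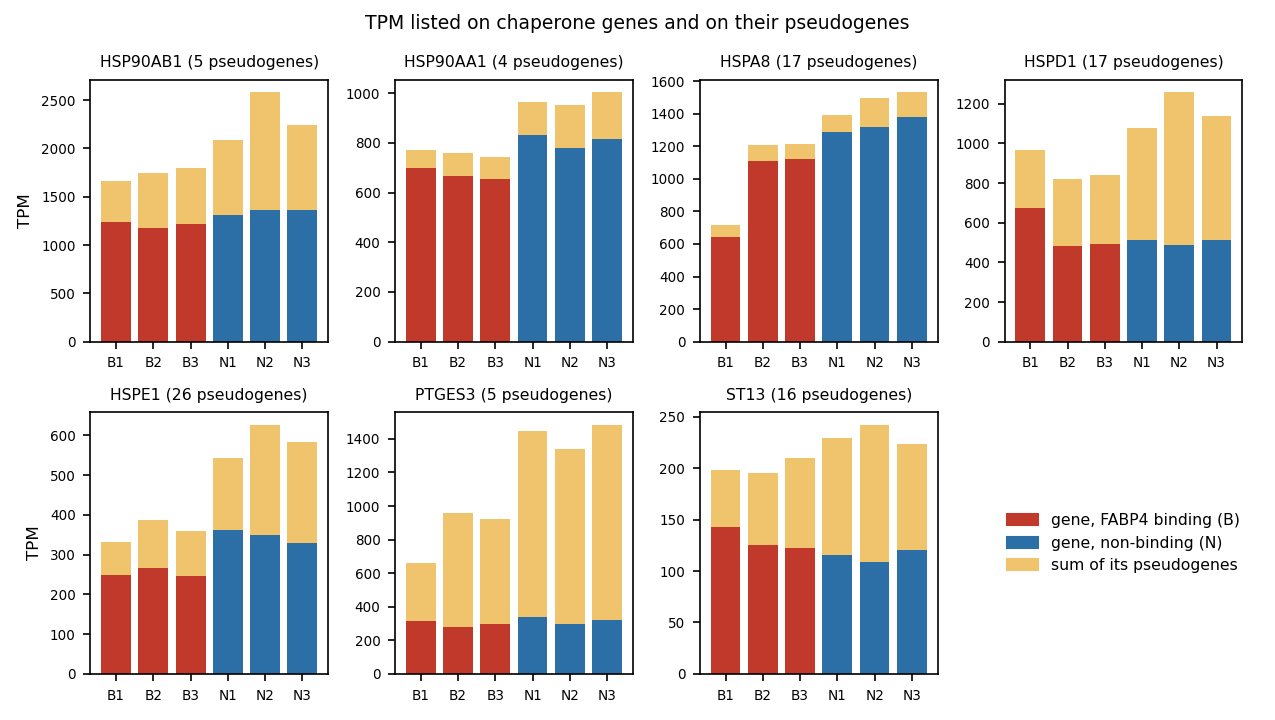
TPM (y axis, from 0) of 7 chaperone genes in each library (x axis; B binding, N non-binding) with the summed TPM of their pseudogenes stacked on top in yellow. Pseudogene sums are smaller in the binding libraries in all 7 panels, while the genes themselves differ less.

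The rest of the chaperone network was described by 5 lists of 87 further genes, of which 73 were tested, 22 were higher and 4 lower (30.1% and 5.48%; median log2 change 0.52). Over all genes tested the shares were 19.6% and 7.12% and the median 0.36. Chaperones of the endoplasmic reticulum had 6 of 12 higher and none lower. Their summed TPM overlapped, at 4457 to 5117 (binding) against 3606 to 5725 (non-binding). HSPA5, named after its values were seen, was the most abundant of the 12. It alone had a log2 change below 0, at -0.35, and did not pass. Mitochondrial chaperones and proteases had 4 of 8 higher and none lower, other HSP90 partners 4 of 19 higher and 2 lower, other J-domain proteins 7 of 28 higher and 2 lower, and further family members and regulators 1 of 6 higher. The 3 smallest adjusted p belonged to FKBP8, an immunophilin of the outer mitochondrial membrane, at 283 ± 18.4 TPM (binding) against 153 ± 5.09 TPM (non-binding), to PDIA4, a disulfide isomerase, and to LONP1, the protease of the mitochondrial matrix (SD, n = 3 each; log2 change 0.89, 0.88 and 0.99; limma with Benjamini-Hochberg, adjusted p = 0.00959, 0.0147 and 0.0156). The 4 lower genes, named after their values were seen, were DNAJC2, TOMM70, PPP5C and DNAJC11. With the common median the counts were 8 higher and 7 lower, where all genes gave 6.18% and 12.1%. Leaving out a library gave 14 higher when binding replicate 1 was left out, 10 for binding replicate 3, 8 for non-binding replicate 1, 1 for non-binding replicate 2 and none for non-binding replicate 3, where 29 were higher by limma at an unadjusted p under 0.05.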

How the data were processed

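Per the labels' protocols, total RNA of the sorted cells had its ribosomal RNA removed and was fragmented and primed at random before sequencing. The deposited values are TPM, as the values themselves show, since each column sums to 1000000. Per the submitters' processing notes the genome was hg38. Which aligner, counter, strand setting and annotation were used is not stated in these sources. Columns were matched to samples by the names the labels give.

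The test was limma 3.58.1 (R 4.3.3) on log2(TPM + 1) of genes that reached 1 TPM in 3 or more libraries, with its trend option and Benjamini-Hochberg adjustment over all genes tested. Fold changes on this scale understate the change of low genes. The genes and lists were chosen with earlier results of these data known. All 44 genes are named, with values in each library for those past the threshold or defining a role. TPM keep no depth, so no count model, interval or floor was used. GENCODE release 29 gave hg38 coordinates and transcripts, and RefSeq (GRCh38.p14) the promoters. The fit was tested on simulated data. Alternatives were 2 filters, a pseudocount of 0.1, no trend, 3 rescalings, the replicate number as a block, each library left out, and pseudogenes added to their parents.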

Additional observations from a re-analysis of the deposited data

How the results depend on the processing

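As reported, 9 and 5 of the 44, 22 and 4 of the further chaperone genes and 3047 and 1109 of all genes were higher and lower, in that order, in the binding cells. The counts were 2 and 11 of the 44, 8 and 7 of the further chaperone genes and 962 and 1890 of all genes with the common median, 4 and 4 of the 44, 11 and 6 of the further chaperone genes and 1197 and 1246 of all genes with quantile normalization, 5 and 0 of the 44, 14 and 1 of the further chaperone genes and 1992 and 567 of all genes without the intensity trend, 5 and 1 of the 44, 9 and 3 of the further chaperone genes and 1373 and 500 of all genes without a filter, and 13 and 3 of the 44, 31 and 2 of the further chaperone genes and 4477 and 813 of all genes with TPM rescaled without mitochondrial genome transcripts. The stricter filter gave 11 and 7 of the 42 genes it kept, 25 and 5 of the further genes and 3351 and 1216 of 10344 genes. Adding pseudogenes gave 9 lower of the 44. With each library left out in turn, the 44 gave 0 to 7 higher and 0 to 8 lower, further chaperone genes 0 to 17 and 0 to 5, and all genes 58 to 1975 and 6 to 888. Without the trend, 8 of the 44 were lower by limma at an unadjusted p under 0.05. A pseudocount of 0.1 changed no call of the 44. The median log2 change of the 44 was -0.21 with the common median, 0.22 without mitochondrial genome transcripts, 0.022 with quantile normalization, 0.016 with pseudogenes added and -0.008 to 0.15 with a library left out, and that of all genes was 0.04 with the common median, 0.11 with quantile normalization, 0.16 without a filter and 0.26 without binding replicate 1.

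Signs of log2 changes reversed for genes that had not passed: with the common median HSPA1B -0.15, HSPA4 -0.21, HSPA4L -0.082, HSPH1 -0.32, HSPD1 -0.21, FKBP4 -0.26, ST13 -0.14, HSF1 -0.038; with quantile normalization HSPA1B -0.010, HSPA4L -0.044, HSPH1 -0.27, HSP90AB1 0.055, FKBP4 -0.063; without mitochondrial genome transcripts PTGES3 0.012; with pseudogenes added HSPD1 -0.40, ST13 -0.21. With libraries left out, changes ranged over DNAJB4 -0.45 to 0.032; HSPA1B -0.51 to 0.70; HSPA4 -0.017 to 0.18; HSPD1 -0.047 to 0.19; HSPH1 -0.078 to 0.11. The causes were not tested.

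With the replicate number as a block the 44 gave 10 higher and 4 lower, and all genes 3174 and 1132. Deviations from group means correlated at -0.0167 to 0.0349 between same-numbered libraries, and 3 of 6 libraries correlated best with their own number. With 3 libraries a group, this check cannot tell whether the numbers pair the samples. Depth is unknown, so its limit on low genes cannot be given.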
